A study of Rattus norvegicus with 6 samples.

Results

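The miR-15/16 and miR-103/miR-107 families were followed in small RNA libraries of AR42J, an established rat cell line derived from the exocrine pancreas. Members were taken by name, as every rat precursor called rno-mir-15a, rno-mir-15b, rno-mir-16, rno-mir-195, rno-mir-497, rno-mir-103 or rno-mir-107, with any copy suffix. This gave 8 precursors (mir-103 has 2 copies) of the 383 with reads, and 19 features of 763, where a feature is an arm of a precursor or a group of reads that fit several members equally well. The 5 precursors mir-15a, mir-15b, mir-16, mir-195 and mir-497 form the miR-15/16 family, and the 3 precursors mir-103-1, mir-103-2 and mir-107 form the miR-103/miR-107 family. No named member was missing from the files.

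The study compared 3 libraries of untreated AR42J cells with 3 libraries of AR42J cells given 200 µM sodium taurocholate, a bile salt, for 30 min. All cells were grown in F12K medium with fetal bovine serum. Taurocholate is used to model bile-induced injury of acinar cells, the enzyme-secreting cells of the pancreas. The labels do not say whether the replicates were separate cultures, so every p-value here covers no more than the scatter among the 6 libraries, and that scatter may be technical.

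miRNAs are short RNAs that guide Argonaute proteins to messenger RNAs, mostly through bases 2 to 8 of the miRNA, the seed. The miR-15/16 family is best known for holding back the cell cycle and survival factors, with cyclins and BCL2 among its known targets. miR-103 and miR-107 are made from introns of the pantothenate kinase genes and are known for roles in insulin sensitivity and for targeting Dicer. Each precursor is cut by Drosha and then Dicer into a 5p and a 3p arm, of which 1 is usually kept. The 3′ end of the kept arm is often trimmed or extended afterwards.

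The mature sequences are shown first because both families are defined by them. All are RefSeq entries of the assembly GRCr8, except miR-15a-5p, which is the most abundant error-free read and so carries T in place of U. Capitals mark the seed.
miR-15a-5p: tAGCAGCAcataatggtttgt
miR-15b-5p: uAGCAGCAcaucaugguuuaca
miR-16-5p: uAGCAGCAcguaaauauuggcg
miR-195-5p: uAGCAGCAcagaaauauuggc
miR-497-5p: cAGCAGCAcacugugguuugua
miR-103-3p: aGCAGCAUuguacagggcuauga
miR-107-3p: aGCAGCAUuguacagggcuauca
The 5 kept arms of the miR-15/16 family share the seed AGCAGCA, and both sequences of the miR-103/miR-107 family share GCAGCAU. The run GCAGCA lies in both seeds, 1 base nearer the 5′ end in miR-103/miR-107. The other arms have seeds of their own, shown because their read ends are compared further on.
miR-15b-3p: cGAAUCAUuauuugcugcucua
miR-16-3p: aCCAAUAUuauugugcugcuu
miR-195-3p: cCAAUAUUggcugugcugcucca
The most abundant error-free read had the same sequence as the RefSeq entry for miR-15b-5p, miR-16-5p, miR-497-5p and miR-103-3p. It differed in length alone for the others: 22 nt against 21 for miR-195-5p and miR-16-3p, 22 against 23 for miR-107-3p and miR-195-3p, and 21 against 22 for miR-15b-3p.

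In the RefSeq gene table, Mir15b and Mir16 are neighbours inside Smc4, which encodes a condensin subunit. Mir195 and Mir497 are neighbours of each other and lie in no listed gene. The mir-103-1, mir-103-2 and mir-107 genes lie inside Pank3, Pank2 and Pank1.

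The libraries held 2791878 to 3987307 reads on miRNA precursors, and the members took between 0.177% and 0.333% of them. Levels are given as counts per 1000000 miRNA reads (CPM), each read counted 1 time, with no correction for differences in ligation between sequences. In bulk RNA, fewer cells of a type and less RNA per cell cannot be told apart. TMM scaling factors, which adjust libraries for their composition, ran from 0.894 to 1.06 in the untreated and from 0.817 to 1.15 in the taurocholate libraries. Taurocholate 1 stood apart from the other libraries in the last base of its reads, as given further on. Many of the larger differences, though not all, are given with and without it. The acinar miRNA mir-148a stood at 284614 to 422852 CPM, but the acinar markers mir-216a, mir-216b and mir-217 had 3, 5 and 5 reads over all 6 libraries. Of the 9 stroma and muscle miRNAs, listed because such cells also make miR-195 and miR-497, 8 had reads in every library, with mir-133b as the exception; their summed level was 14937 to 17476 CPM in untreated and 11926 to 17050 CPM in taurocholate libraries. The endocrine list, nearly all of it mir-7a, summed to 55235 to 60016 CPM in untreated and 41419 to 54926 CPM in taurocholate libraries, and the endocrine marker mir-375 was at 2.51 to 77.5 CPM. The blood and immune list, most of it mir-142, summed to 2069 to 3868 and 1947 to 3651 CPM. On that list mir-451 was at 191, 34.4 and 1148 CPM in untreated and 209, 32.5 and 516 CPM in taurocholate libraries. From the stroma list, mir-126a was at 243, 12.5 and 475 against 234, 48.7 and 294 CPM. Both were lowest in replicate 2 of each group, which mir-142 was not in the untreated libraries. The liver miRNA mir-122 stood at 6.88 to 26.7 CPM. The part of other cell types in the members' levels was not tested.

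Over both families the levels did not differ between untreated and taurocholate libraries beyond what the tests could call. By edgeR's quasi-likelihood test with Benjamini-Hochberg adjustment over all miRNA features, 0 of the 12 members with enough reads to be tested were called, beside 0 of 378 features in all (0.0%). At an unadjusted p under 0.05 there were 2 members, miR-103-3p and miR-15b-5p, where 16.9% of all features passed, and none of the members passed with replicate number as a block. DESeq2 called 12 features, none of them a member. The fitted log2 fold change was above 0 for 10 of the 12 members with a median of 0.13, against 48.9% of all features and a median of -0.01. This count moved with the setting. It was 6 of 10 with shared reads divided (median 0.056) and 8 of 11 with error-free reads (median 0.031). Without taurocholate 1 it was 8 of 12, and by DESeq2 or library totals 11 of 12. By CPM, 0 of 12 tested members had groups that did not overlap (13.8% of all features). After TMM scaling this held for 3 of 12, each higher with taurocholate, where 11.6% of all features did so in that direction and 26.5% in either.

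**Figure D1:**
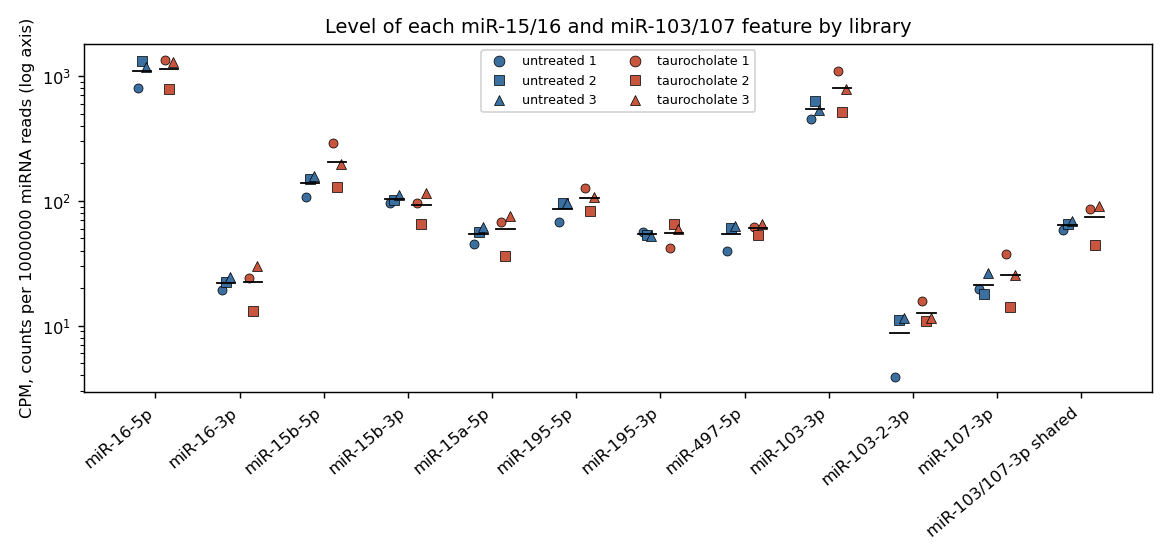
Level of the 12 tested members in each library, in CPM on a log axis; circles, squares and triangles are replicates 1, 2 and 3, and black bars are group means of 3 libraries. The groups overlap for every member, and taurocholate 1 is the highest library for miR-103-3p (1101 CPM) and miR-15b-5p (293 CPM).

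miR-16-5p, the most abundant member, was level between the groups. It stood at 800, 1319 and 1188 CPM in untreated replicates 1, 2 and 3 and at 1352, 783 and 1303 CPM in taurocholate replicates 1, 2 and 3. Untreated 1 and taurocholate 2, the libraries with the lowest TMM factors, were the low ones in each group, and the groups overlapped. The log2 fold change was 0.01 (SE 0.17, edgeR adjusted p = 0.977). Its passenger arm miR-16-3p was at 22 CPM ± 2.59 (SD, n = 3) in untreated and 22.6 ± 8.63 (n = 3) in taurocholate libraries.

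miR-15b is encoded beside miR-16, and the fitted changes of its arms had opposite signs, though neither arm was called. miR-15b-5p was at 106.8, 149 and 158 CPM in untreated and 293, 129 and 197 CPM in taurocholate libraries. Taurocholate 1 was the highest and untreated 1 the lowest, and the groups overlapped by CPM but not after TMM scaling. The log2 fold change was 0.52 (SE 0.22, edgeR unadjusted p = 0.0492, adjusted p = 0.290), and 0.29 without taurocholate 1. miR-15b-3p was at 95.4, 102 and 111 CPM in untreated and 96.6, 65.9 and 115 CPM in taurocholate libraries. Here the groups overlapped on both scales, with a log2 fold change of -0.20 (SE 0.16, edgeR adjusted p = 0.522), and -0.093 without taurocholate 2.

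The other members of the miR-15/16 family were rarer. miR-195-5p averaged 86.8 CPM ± 16.5 in untreated and 106 ± 22.5 in taurocholate libraries (mean ± SD, n = 3 per group), with groups apart solely after TMM scaling (log2 fold change 0.25, SE 0.15, edgeR adjusted p = 0.480; 0.16 without untreated 1 and 0.42 without untreated 2). miR-15a-5p averaged 54.4 ± 8.79 and 59.5 ± 20.8 CPM (mean ± SD, n = 3 per group). miR-497-5p averaged 54.4 ± 12.7 and 60.3 ± 6.62 CPM (mean ± SD, n = 3 per group). miR-195-3p, at 53.9 ± 2.13 and 55.3 ± 12.2 CPM (mean ± SD, n = 3 per group), was close to these levels, and the groups overlapped for all 3 of these arms. The adjusted p of these 3 arms in edgeR's quasi-likelihood test was 0.703 to 0.957.

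miR-103-3p, the main form of its family, was at 452, 638 and 538 CPM in untreated and at 1101, 519 and 784 CPM in taurocholate libraries. Taurocholate 1 and 3 were above all untreated libraries while taurocholate 2 was not. After TMM scaling the levels were 506, 623 and 506 against 960, 635 and 715, which do not overlap. The log2 fold change was 0.50 (SE 0.19, edgeR unadjusted p = 0.0333, adjusted p = 0.261), and 0.31 without taurocholate 1.

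miR-103 and miR-107 differ at base 22 alone, so a read that stops earlier or has another base there fits both. Such shared reads were at 64.2 CPM ± 5.68 in untreated and 73.9 ± 25.6 in taurocholate libraries (mean ± SD, n = 3 per group). Reads that could only be miR-107-3p were at 21.4 ± 4.51 and 25.7 ± 11.8 CPM (mean ± SD, n = 3 per group). The miR-107-3p level leaves out miR-107 reads that stop before base 22, and its reads end at base 22 or later by construction. Its 22 nt form, at 9.77, 9.28 and 15.4 CPM in untreated and 14.7, 7.93 and 12.4 CPM in taurocholate libraries, is told apart by its last base C alone, which a miR-103 read with an added or misread C would share. The 2 mir-103 genes give the same mature sequence and are separated solely by 3′ extensions into the precursor: reads of that kind from mir-103-2 were at 8.8 ± 4.24 and 12.7 ± 2.71 CPM (mean ± SD, n = 3 per group). Groups overlapped for all 3 of these features, with log2 fold changes of 0.13, 0.19 and 0.52 and edgeR adjusted p from 0.496 to 0.752. Single libraries moved these values: the shared reads were at 0.33 without taurocholate 2, miR-107-3p at -0.089 without taurocholate 1, and the mir-103-2 reads at 0.22 without untreated 1.

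In untreated libraries the range of miR-16-5p lay above that of miR-103-3p, which lay above that of miR-15b-5p. Below these, miR-15b-5p and miR-15b-3p overlapped, as did miR-15b-3p and miR-195-5p. miR-15a-5p, miR-497-5p and miR-195-3p also overlapped one another. miR-107-3p and miR-16-3p overlapped at a lower level, and the reads assigned to mir-103-2 were lowest among those tested. The 7 features with too few reads to be tested were miR-103-1-3p, miR-103-1-5p, miR-103-2-5p, miR-15a-3p, miR-497-3p, the reads shared by miR-15a-5p and miR-15b-5p, and those shared by miR-16-5p and miR-195-5p. Their mean levels ran from 0.15 CPM (miR-497-3p, 3 reads in all) to 5.25 CPM (miR-103-1-3p, of whose reads 69 were in taurocholate 1 and 3 to 10 in each other library).

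Family sums and ratios between members leave out reads that lie beside the mature arms, which the levels above include. Summed over the 5p arms, the miR-15/16 family had 1045, 1665 and 1546 CPM in untreated and 1864, 1067 and 1732 CPM in taurocholate libraries. The miR-103/miR-107 family had 535.5, 733.6 and 646.2 CPM in untreated and 1260, 589.3 and 913.6 CPM in taurocholate libraries. By CPM both sums overlapped between groups (two-sided exact permutation p = 0.5 and 0.3, adjusted over 3 comparisons 0.5 and 0.45). With TMM factors the miR-15/16 sum still overlapped, while the log2 level of the miR-103/miR-107 sum was 9.23, 9.48 and 9.25 against 10.10, 9.49 and 9.70, higher in all 3 taurocholate libraries (exact permutation p = 0.1). The log2 ratio of the first family to the second needs no scaling between libraries. It was 0.96, 1.18 and 1.26 in untreated and 0.56, 0.86 and 0.92 in taurocholate libraries, so all 3 taurocholate libraries lay below the untreated ones. The difference was -0.35 (exact permutation p = 0.1, the smallest that 3 against 3 libraries allow; adjusted p = 0.3), and -0.25 without taurocholate 1. With error-free reads the groups stayed apart (difference -0.37), as they did with mismatched last bases left out (-0.38). Among reads ending in A, in C, in G or in T taken alone, the groups overlapped in each case, and the difference was 0.33 for reads ending in C.

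The composition of the miR-15/16 family was also compared, a choice made after the values were seen, so these ratios are a description with no test. miR-16-5p made up 76.6%, 79.2% and 76.9% of the family's reads in untreated and 72.5%, 73.4% and 75.2% in taurocholate libraries, all lower. The log2 ratio of miR-15b-5p to its cluster partner miR-16-5p was -3.12, -3.32 and -3.12 in untreated and -2.42, -2.81 and -2.85 in taurocholate libraries, all higher. That ratio also separated the groups among reads ending in A, in C and in T, by 0.62, 0.40 and 0.41, and overlapped among reads ending in G. Without taurocholate 1 the 3 values were 0.40, 0.32 and 0.39. The A and T subsets compare unlike read forms of these miRNAs, so they do not hold the read end fixed. The matched 22 nt forms end in A for miR-15b-5p and in G for miR-16-5p. The matched 23 nt form of miR-16-5p ends in T. The ratios of miR-15b-3p to miR-16-3p, of miR-195-5p to miR-497-5p and of miR-103-3p to miR-107-3p overlapped.

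The arm ratio asks whether the balance between the 5p and 3p products of one precursor differed. For miR-15b the counts of 5p reads were 328, 596 and 440 in untreated and 981, 487 and 718 in taurocholate libraries, beside 3p counts of 293, 406 and 311 and of 323, 249 and 420. The log2 ratio of 5p to 3p was 0.16, 0.55 and 0.50 in untreated libraries and 1.60, 0.97 and 0.77 in taurocholate libraries. All 3 taurocholate libraries lay above all untreated ones, with taurocholate 1 the highest. The difference was 0.71 (exact permutation p = 0.1, adjusted p = 0.3 over 3 arm ratios), and 0.46 without taurocholate 1. Among other miRNAs with both arms measured, 23.3% of arm ratios did not overlap between the groups.

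The 3p arm of miR-15b ends mostly in T and the 5p arm mostly in A, and the last base itself differed between the groups over all miRNAs, as described below. The arm ratio was therefore taken again within reads of 1 last base, an alternative added after seeing the data. Among reads ending in A the log2 ratios were 1.31, 1.59 and 1.62 in untreated and 2.26, 1.61 and 1.44 in taurocholate libraries, which overlap. Among reads ending in T they were -1.30, -1.20 and -1.25 against -0.43, -0.82 and -0.77, which do not. Reads ending in C also separated the groups, by 1.48, and those ending in G, mostly from taurocholate 1, did not. The T and C subsets compare unlike read forms, so they do not hold the read end fixed. The leading 3p read ending in T is the matched 21 nt form. The matched 22 nt and 21 nt forms of miR-15b-5p end in A and in C, so its reads ending in T are other forms. The 5p reads of the C subset were mostly the matched 21 nt form. Its 3p reads numbered 36, 61 and 44 in untreated and 18, 19 and 36 in taurocholate libraries. Of these, 29, 42 and 34 and then 10, 13 and 24 had a mismatched C at base 21. Other miRNA reads with a mismatched last C averaged 10.2% in untreated and 6.98% in taurocholate libraries. Without taurocholate 1 the arm ratio differences were 0.018, 1.19, 0.0086 and 0.45 for reads ending in A, C, G and T.

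**Figure D2:**
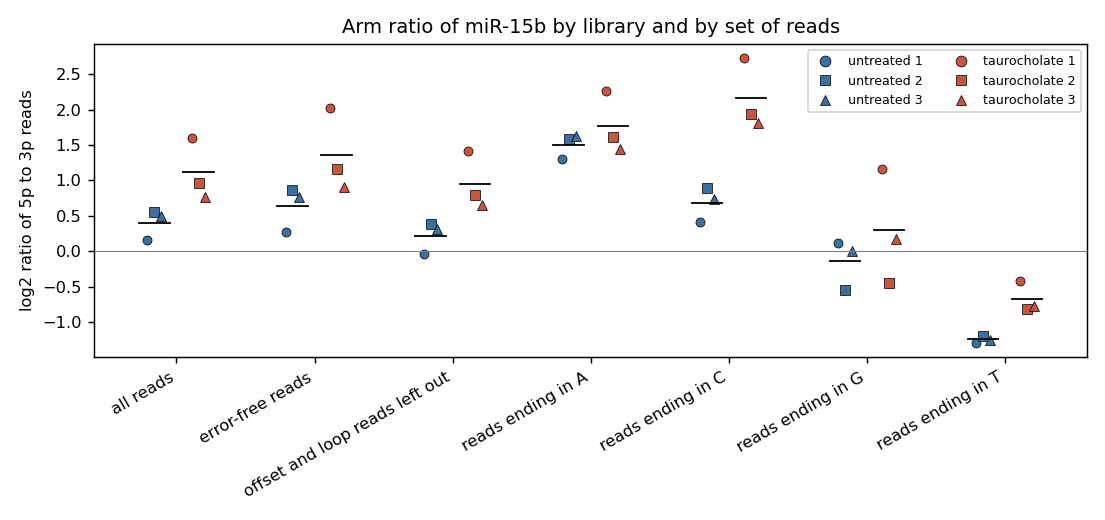
Log2 ratio of 5p to 3p reads of miR-15b in each library, over all reads and over 6 subsets of reads; symbols are replicates and black bars group means of 3 libraries. The groups are apart over all reads, error-free reads, without offset and loop reads, and among reads ending in C or T, and overlap among reads ending in A or G.

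For the other precursors no arm ratio was apart. The log2 ratio of miR-16 was 5.61 ± 0.26 in untreated and 5.70 ± 0.24 in taurocholate libraries (mean ± SD, n = 3 per group). That of miR-195 was 0.67 ± 0.35 and 0.94 ± 0.64 (mean ± SD, n = 3 per group). The minor arms of miR-15a and miR-497 averaged 1.66 and 0.15 CPM and were not compared. mir-103-2 gave 7 reads of its 5p arm, and mir-107 gave no 5p read.

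Some mir-15b reads came from outside its mature arms. The most frequent one is shown because it marks the piece of precursor left of the Drosha cut; the capital marks its last base.
mir-15b 5′ offset read: ttggaaccttaaagtactG
Over the 6 libraries 439 reads lay there, 46, 69 and 60 in untreated and 136, 65 and 63 in taurocholate libraries. Of these, 85.7% ended at base 24 of the precursor reference, directly before the start of miR-15b-5p at base 25. Their 5′ ends were mostly at bases 6 and 7, with 176 and 166 reads.

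Per 100 mature miR-15b-5p reads there were 16.3, 13.1 and 15.7 offset reads in untreated and 15.9, 15.3 and 9.59 in taurocholate libraries. The groups overlapped (exact permutation p = 0.6), and taurocholate 3 was the lowest. The loop of mir-15b gave 28 reads. mir-103-1 gave 17 reads beside the 5p arm and 16 beside the 3p arm, and the other members gave 4 or fewer at any such place.

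**Figure D3:**
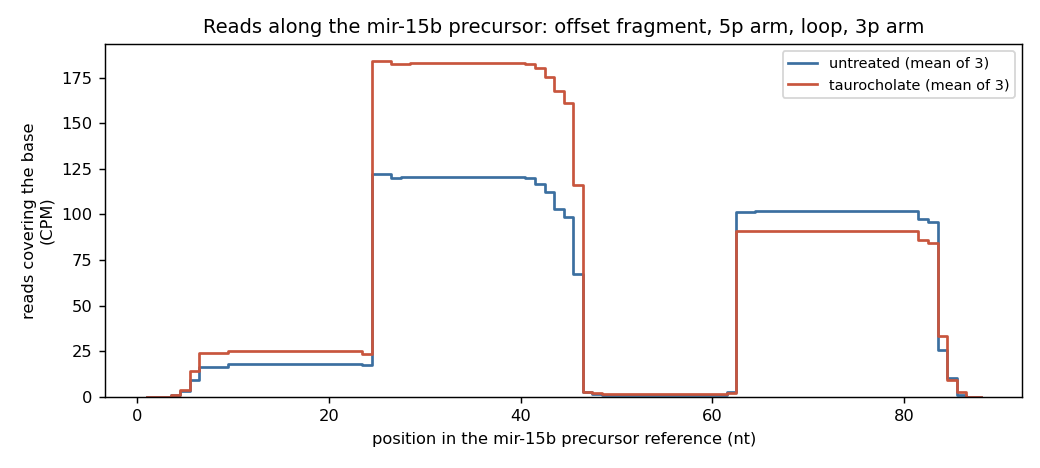
Reads covering each base of the mir-15b precursor, as mean CPM of 3 libraries per group. From left to right the blocks are the offset fragment, the 5p arm starting at base 25, the loop and the 3p arm; the taurocholate line is above the untreated line over the 5p arm and below it over most of the 3p arm.

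The 5′ ends of the kept arms, which set the seed, were nearly fixed. Among error-free reads of all libraries, 99.9% of miR-15a-5p, 99.7% of miR-16-5p, 99.8% of miR-195-5p and 99.1% of miR-103/miR-107-3p began at the most frequent start. miR-497-5p was looser, with 4.88% of reads starting 1 base later, which gives the seed GCAGCAC. For miR-103/miR-107-3p, 0.807% of reads started 2 bases later, with the seed AGCATTG.

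The 3p arm of miR-16 had 2 starts of nearly equal use, 51.2% of 287 reads at the first and 46% at the next base, which gives the seed CAATATT. The same seed is that of the main miR-195-3p reads. Reads were few: the first start had 20, 32 and 32 in untreated and 23, 11 and 29 in taurocholate libraries. The next base had 18, 22 and 17 and then 23, 17 and 35. The share at the first start was 51.3%, 59.3% and 64% in untreated and 48.9%, 39.3% and 42% in taurocholate libraries. These do not overlap, and the difference of -14.8 percentage points (exact permutation p = 0.1, adjusted p = 0.4) was the sole 5′ start of 9 arms to do so, where 8.5% of other miRNAs did. Without taurocholate 1 the difference was -17.5 percentage points.

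At the 3′ end, members differed in both directions. Of 36 comparisons (9 arms by 5′ start, 3′ end, mean length and share with a mismatched last base) 9 did not overlap, each with an exact permutation p of 0.1 and an adjusted p of 0.4. The most frequent 3′ end was apart in 4 of 9 arms, where 32.4% of other miRNAs were apart. Mean length was apart in 3 (28.7% of others) and the share with a mismatched last base in 1, miR-195-3p (17.8% of others). The share at the most frequent 3′ end was lower with taurocholate for miR-15a-5p, miR-15b-3p and miR-16-3p and higher for miR-15b-5p. The lower ones differed by -16.4, -16.8 and -21.1 percentage points, and by -13.2, -15.0 and -16.3 without taurocholate 1. The miR-16-3p value rested on the same 287 error-free reads as its 5′ starts. The miR-15b-5p difference rested on the reads used: over all reads, mismatches included, and over reads of 20 to 25 nt (a difference of 3.06 against 7.72 percentage points) the miR-15b-5p groups overlapped. Mean length was higher for miR-15b-5p by 0.26 nt and for miR-195-3p by 0.20 nt, and lower for miR-16-5p, by -0.15 nt. Over reads of 20 to 25 nt the miR-15b-5p difference was 0.020 nt (exact permutation p = 0.6), and over all reads the miR-195-3p difference was 0.045 nt (exact permutation p = 0.5). The miR-15a-5p, miR-15b-3p, miR-16-3p and miR-16-5p differences kept their separation in both sets of reads.

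The pair of leading reads of each arm, same start and 1 base apart, shows what this meant in sequence. In these lines capitals mark the last base, which is the base the 2 reads differ by at the 3′ end.
miR-15a-5p, 21 nt: tagcagcacataatggtttgT
miR-15a-5p, 22 nt: tagcagcacataatggtttgtG
miR-15b-3p, 21 nt: cgaatcattatttgctgctcT
miR-15b-3p, 22 nt: cgaatcattatttgctgctctA
miR-16-5p, 22 nt: tagcagcacgtaaatattggcG
miR-16-5p, 23 nt: tagcagcacgtaaatattggcgT
For miR-15a-5p the counts of the 21 nt read were 48, 75 and 65 in untreated and 42, 31 and 88 in taurocholate libraries, and those of the 22 nt read 12, 30 and 28 and then 45, 27 and 55. The log2 ratio of longer to shorter was -1.96, -1.31 and -1.20 in untreated and 0.10, -0.20 and -0.67 in taurocholate libraries. The taurocholate libraries were all higher, by 1.23.

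For miR-15b-3p the log2 ratio was -2.32, -1.71 and -1.98 in untreated and -0.56, -0.78 and -0.89 in taurocholate libraries, higher by 1.26 in the taurocholate group. miR-16-5p went the other way in length, at 0.0028, -0.86 and -0.15 in untreated and -1.75, -1.09 and -0.94 in taurocholate libraries, a difference of -0.92. Each of these 3 had an exact permutation p of 0.1 and an adjusted p of 0.3, and the other 6 pairs overlapped. Without taurocholate 1 the 3 differences were 1.05, 1.17 and -0.68. Among other miRNAs 30.1% of such pairs were apart. In all 3 pairs the read ending in T was the one that was relatively lower with taurocholate, whether it was the shorter or the longer.

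**Figure D4:**
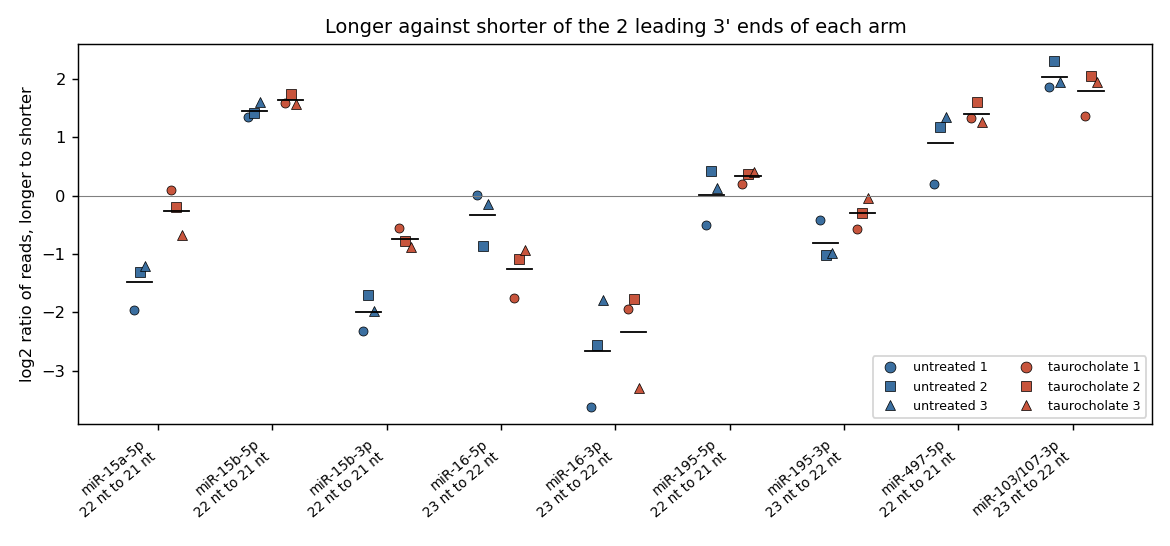
Log2 ratio of reads between the longer and the shorter of the leading pair of reads of 9 arms, by library; symbols are replicates and black bars group means of 3 libraries. miR-15a-5p and miR-15b-3p are higher and miR-16-5p lower in all 3 taurocholate libraries, and the other 6 overlap.

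The last base was then tallied for all reads. Among member reads 35.4%, 27.8% and 33.2% ended in T in untreated and 15.4%, 24.9% and 26.3% in taurocholate libraries, all lower. Other miRNA reads did the same, at 65.4%, 60.6% and 62.8% against 39.1%, 59.5% and 55.8%. By arm, the share ending in T was apart and lower in 4 of 9 member arms (miR-15a-5p, miR-15b-3p, miR-195-3p and miR-103/miR-107-3p), where 41.7% of other miRNAs were apart and lower and 0.353% apart and higher. Shares ending in C were apart and lower in 3 of 9 (28.3% of others), those ending in A apart and higher in 2 (18.4%), and those ending in G apart and higher in 2, miR-15a-5p and miR-16-5p (20.5%). For these 2 arms the differences of 17.1 and 11.4 percentage points were 8.58 and 4.97 without taurocholate 1.

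**Figure D5:**
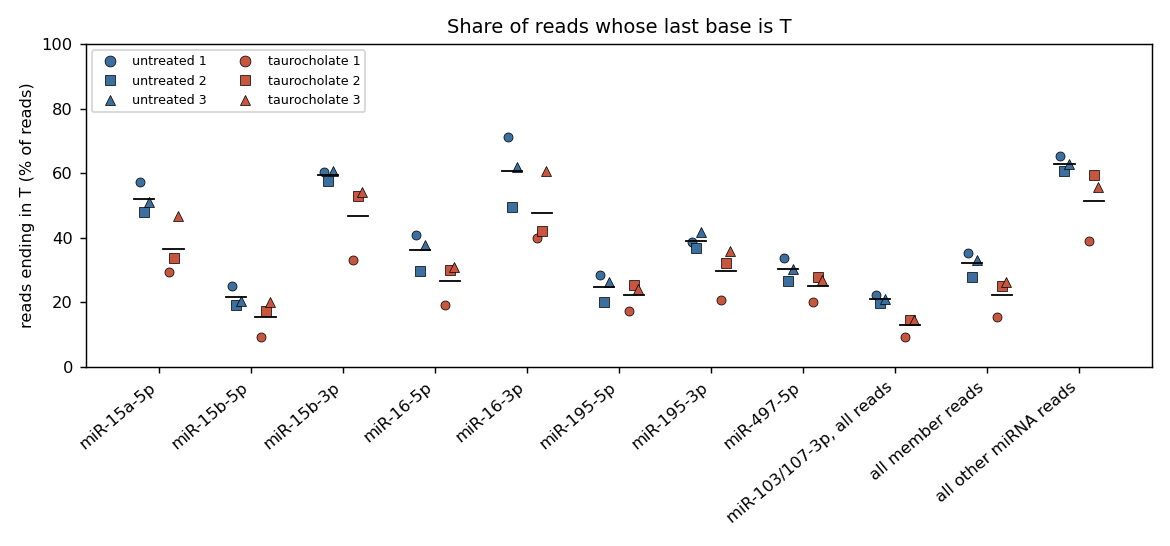
Percent of reads ending in T in each library for 9 member arms, all member reads and all other miRNA reads; symbols are replicates and black bars group means of 3 libraries. The mean is lower with taurocholate for every arm, taurocholate 1 is the lowest library in all of them, and member reads and other miRNA reads move the same way.

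Taurocholate 1 stood apart in reads ending in G. Among member reads these were 45.3% in that library and 18.9% to 22.9% in the other 5. Reads whose last base was a G that mismatched the precursor were 17.1% of member reads in taurocholate 1, 4.82% in untreated 1 and 1.09% to 1.83% in the other 4. For miR-15b-5p the form A22G (precursor base, position from the read's 5′ end, read base) was at 67 CPM in taurocholate 1, 7.17 CPM in untreated 1 and 1.25 to 3.3 CPM elsewhere. The same change in miR-497-5p was at 12.3 CPM in taurocholate 1 and at most 1.37 CPM elsewhere. Other miRNA reads with a mismatched last G were at 22.1% in taurocholate 1, 5.32% in untreated 1 and 1.2% to 1.89% in the other libraries.

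Single read sequences were tested in the same way. Of 69 member sequences tested among 4825, edgeR's quasi-likelihood test called 0 (0.0% of all; smallest member adjusted p = 0.225), and DESeq2 also called 0. At an unadjusted p under 0.05 there were 13 member sequences, 11 of them higher with taurocholate, where 18.3% of all passed in either direction. The number and its direction depended on the setting: with library totals 5 passed with 2 of them higher, there were 8 with 2 higher without untreated 1, and 10 with 4 higher without taurocholate 3. By last base, 21 of 24 member sequences ending in A and 12 of 12 ending in G had log2 fold changes above 0, with medians of 0.55 and 0.98. Of those ending in T 17 of 21 were below 0, with a median of -0.24. Among the other miRNAs 813 of 897 sequences ending in A and 863 of 877 ending in G were above 0. Of their sequences ending in T 1695 of 2171 were below 0. The medians of the other miRNAs were 0.49, 0.97 and -0.27 for A, G and T, so the members stood close to the rest. Without taurocholate 1, 21 of 24 member sequences ending in A (median 0.36) and 9 of 12 ending in G (median 0.28) were above 0, and 16 of 21 ending in T (median -0.39) were below 0.

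The forms of miR-103-3p show the same order by last base. The 22 nt form ending in G was at 58, 74 and 72.7 CPM in untreated and 165, 73 and 117 CPM in taurocholate libraries (log2 fold change 0.94, SE 0.28, edgeR adjusted p = 0.225; 0.47 without taurocholate 1). The 23 nt form ending in A was at 211, 366 and 282 against 425, 304 and 455 CPM (log2 fold change 0.62, SE 0.21, edgeR adjusted p = 0.238; 0.41 without taurocholate 1). Both overlapped between groups, whereas the form with an added T (A24T) was at 53.1, 69.7 and 59.1 against 51.4, 38.6 and 50 CPM, lower in all 3 taurocholate libraries. Its log2 fold change after scaling was -0.22 (SE 0.20, edgeR adjusted p = 0.504), and -0.44 without taurocholate 1.

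The leading miR-16-5p forms split likewise. The 22 nt form was at 168, 382 and 261 CPM in untreated and 432, 225 and 361 CPM in taurocholate libraries (log2 fold change 0.48, SE 0.31), and the fold change was 0.12 without taurocholate 1. The 23 nt form, ending in T, was at 168, 210 and 235 against 128, 106 and 188 CPM (log2 fold change -0.40, SE 0.21). Both overlapped. The 20 nt form ending in G stood 0.79 higher on the log2 scale (SE 0.29, and 0.39 without taurocholate 1). The form T23C differed by -0.73 (SE 0.27, and -0.78 without taurocholate 1). Each had an edgeR adjusted p of 0.246.

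For miR-15b-3p the 22 nt read ending in A was at 8.47, 13.3 and 12.5 CPM in untreated and 14.4, 14.5 and 23.1 CPM in taurocholate libraries, higher in all 3. The 21 nt read ending in T was at 43, 43.6 and 50.1 against 21.2, 25.1 and 42.9 CPM, lower in all 3. The log2 fold changes of the A and T reads were 0.75 (SE 0.26, edgeR adjusted p = 0.239) and -0.48 (SE 0.27, edgeR adjusted p = 0.350). The form T21C was at 9.45, 10.5 and 12.2 against 2.99, 3.44 and 6.6 CPM, also lower in all 3 (log2 fold change -1.15, SE 0.30, edgeR adjusted p = 0.225). Without taurocholate 1 the log2 fold changes of the A, T and T21C reads were 0.72, -0.44 and -1.10. The share of all tested sequences whose groups did not overlap was not counted, here or for the A24T form of miR-103-3p.

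miR-15a-3p was rare, with 34 reads over the 6 libraries, and nearly all of them carried the same difference from the precursor reference. The most frequent read is shown with that base in capitals.
miR-15a-3p read: caggccataCtgtgctgcctca
In 33 of the 34 reads base 65 of the reference was read as C in place of T (T10C, or T9C in reads that start 1 base later), and 1 read lacked the change. Such reads were seen in all 6 libraries.

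Relatives outside the families that share the seed or nearly so were looked up by name. miR-322-5p carries the seed AGCAGCA and miR-503-5p carries AGCAGCG, and their genes lie close together in one long noncoding RNA gene.
miR-322-5p: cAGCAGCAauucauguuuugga
miR-503-5p: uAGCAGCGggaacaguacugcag
miR-322-5p was at 60.3, 77.2 and 106 CPM in untreated and 156, 64.5 and 123 CPM in taurocholate libraries, and miR-503-5p at 89.6, 120 and 120 against 195.3, 96.3 and 147.9 CPM. Both overlapped by CPM, and after TMM scaling miR-503-5p was higher in all 3 taurocholate libraries while miR-322-5p overlapped. By CPM both had taurocholate 1 the highest and taurocholate 2 the lowest of its group, as for miR-103-3p. miR-322-3p, which had more reads than miR-322-5p in all 6 libraries, was at 128, 151 and 153 against 237, 145.2 and 208 CPM, which overlap by CPM but not after TMM scaling (log2 fold change 0.40, SE 0.13, edgeR adjusted p = 0.198). The rarer miR-503-3p was at 8.47, 8.53 and 8.95 against 16.4, 10.1 and 13.7 CPM, higher in all 3 on both scales (log2 fold change 0.58, SE 0.18, edgeR adjusted p = 0.198). No read was listed under the names mir-424, mir-646 or mir-6342. The files hold alignments alone, so whether the reference had precursors of these names is not known.

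Likeness to other miRNAs was measured as Pearson's r of log2 TMM-scaled CPM over the 6 libraries, among 283 features outside the families; the points share library, depth and scaling. The most like miR-16-5p were miR-19b-3p (0.92), let-7c-1-5p (0.89) and miR-362-3p (0.87). The most like miR-103-3p were miR-152-3p (0.98), miR-125b-5p (0.97) and miR-140-3p (0.96). For miR-103-3p 12 features exceeded 0.9 and for miR-16-5p 1 did.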

How the data were processed

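Small RNA of AR42J cells was measured in 6 libraries, and groups and replicate numbers come from the sample labels. Per the labels' protocols, RNA was deacylated, freed of 3′ cyclic phosphates, phosphorylated at 5′ ends, demethylated and size-selected on a gel, which alters which RNA ends can be ligated. Per the submitters' processing notes, the programs used include Novoalign 2.07.11, with cutadapt and FastQC. A genome build is not given in the sources used here. What the authors deposited are read counts: a line holds, per the file headers, an alignment of a distinct read sequence to a miRNA precursor with its number of reads. Reads were 16 to 28 nt long with at most 1 mismatch or indel.

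Each read sequence entered 1 time per library with its number of reads, however many precursors it aligned to. Precursor references carried 5 nt on each side of the RefSeq hairpin. Reads fitting several members formed features of their own. Reads beside the mature arm count in the arm of their side in feature levels and the main arm ratio. They were left out of the family sums, the ratios between members or families, and the arm ratios by last base. In the read-end measures and in an alternative they were set apart. Tests were edgeR 4.0.16 (quasi-likelihood, TMM, filterByExpr, Benjamini-Hochberg, called at adjusted p under 0.05) on the whole table in R 4.3.3, and two-sided exact permutation tests in scipy 1.17.1, with 0.5 reads added to ratios. The smallest exact p is 0.1. Standard errors come from the F statistic. The edgeR step was tested on simulated data. DESeq2 1.42.0 was an alternative, beside other scalings, filters, read sets and leaving out each library.

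Same-numbered libraries deviated together (r = 0.24, 0.61 and 0.16 over 295 features), so a fit with replicate number as a block was run as an alternative; the printed tests are unpaired. By the same measure untreated 1 was closer to taurocholate 3 (r = 0.39). The labels do not say what the numbers share.

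Named members are those with a mean of at least 10 CPM; read sequences are the 3 most abundant per arm and those of smallest p at that level. Others are the seed relatives and the 3 features most like the leading member of each family. A few rarer reads are named for their sequence, and were chosen after their values were seen. Members and lists were chosen with earlier results of these data known. The mir-15a hairpin is not analysed here against RefSeq.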

Additional observations from a re-analysis of the deposited data

How the results depend on the processing

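Depth limits the minor arms: miR-15a-3p, miR-497-3p and the 5p arms of miR-103 had too few reads to compare, and 3 against 3 libraries cannot give an exact p under 0.1. No member was called under any of 15 alternatives, and the replicate block changed no call. DESeq2 called 12 features. Leaving out a library gave 0 to 1 called read sequences. The log2 fold changes of miR-15b-5p and miR-103-3p kept their direction throughout. The paired exact test of 3 pairs cannot go under 0.25, the value of the miR-15b arm ratio with the replicate block.

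Without 1 library the log2 fold changes of miR-103-2-3p, the shared reads, miR-195-5p, miR-15b-3p, miR-497-5p and miR-15a-5p were 0.22 to 0.81, 0.087 to 0.33, 0.16 to 0.42, -0.23 to -0.093, 0.014 to 0.31 and 0.016 to 0.26. Values near 0 changed sign. The log2 fold change of miR-16-5p was -0.00020 with reads of 20 to 25 nt and -0.042 with shared reads divided, and -0.12 to 0.24 without 1 library. That of miR-16-3p was 0.0095 by DESeq2, 0.038 by library totals, 0.11 without a filter, and -0.14 to 0.18 without 1 library. That of miR-195-3p was -0.0077 with the replicate block, -0.012 with shared reads divided, and -0.24 to 0.29 without 1 library. The reads shared by miR-103 and miR-107 were at -0.15 among error-free reads, and miR-107-3p was at -0.089 to 0.42 without 1 library.

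The arm ratio difference of miR-16 was -0.47, -0.31, -0.070 and -0.0044 among reads ending in A, C, G and T, and -0.041 to 0.22 without 1 library. That of miR-195 was -0.023 with error-free reads, -0.019 without mismatched last bases, -0.072 among reads ending in C, and -0.069 to 0.57 without 1 library. The miR-15/16 family level was -0.087 to 0.37 and the miR-16-3p pair ratio -0.16 to 0.80 without 1 library. The ratio of the families was 0.33 among reads ending in C and -0.44 to -0.25 without 1 library. The cause of these changes was not tested. Subsets by last base and the split of offset reads were chosen after seeing the data.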
